A study of Rattus norvegicus with 6 samples.

Results

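The heart stores little ATP and buffers it through linked reactions, and 9 genes of these reactions were followed by their symbol in the myocardium of rats with and without myocardial ischemia/reperfusion. They were Ckm, Ckmt2 and Ckb (creatine kinases), Slc6a8 (creatine transporter), Mb (myoglobin), Ak1 (adenylate kinase), Ampd3 (AMP deaminase), and Prkaa2 and Prkag2 (subunits of the AMP-activated protein kinase, AMPK). The table used held 8 of the 9, and Ak1 was not analysed here. All 8 were among the 10942 genes tested, out of 28293 genes.

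The sham group held 3 samples and the I/R group held 3, each taken here as 1 rat although the labels only number them, and the rats are given as WT by the labels and as male by the protocol. For I/R, the left anterior descending artery of the heart was tied for 30 min, the tie was released, and the heart was taken after 6 h of reperfusion. Sham rats carry the same times in their labels. In the drug experiment of the same study, sham and reperfusion rats were injected with PBS as vehicle, and it is not stated whether the sequenced rats were among them. Neither the strain, the age nor the region of the heart that was sampled is given in the sources used here, so how much of the sampled tissue had been ischemic is not known. Values are FPKM, fragments counted for a gene over its length and the size of the library, and can be compared between genes.

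Creatine kinases move the phosphate of ATP onto creatine and back. The sarcomeric mitochondrial enzyme (Ckmt2) charges creatine where ATP is made, the cytosolic muscle enzyme (Ckm) returns the phosphate to ADP beside the myofibrils, and the brain-type enzyme (Ckb) is a further cytosolic form. Creatine itself is taken up from blood by Slc6a8. Myoglobin holds oxygen inside the muscle cell. When ATP falls, AMP rises: AMP deaminases such as Ampd3 convert it to IMP, and AMPK senses it through a gamma subunit such as Prkag2 and acts through a catalytic alpha subunit such as Prkaa2.

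The 4 genes that were higher in the I/R rats are printed here by the 250 bases before the start listed in RefSeq (build GRCr8), since they moved together, and this is the stretch where the TATA box and the binding sites next to it are read. Each runs 5′ to 3′ on the strand of its gene, and capitals mark every match to the motifs searched.
Ckm (chr1:88189211-88189460, plus strand): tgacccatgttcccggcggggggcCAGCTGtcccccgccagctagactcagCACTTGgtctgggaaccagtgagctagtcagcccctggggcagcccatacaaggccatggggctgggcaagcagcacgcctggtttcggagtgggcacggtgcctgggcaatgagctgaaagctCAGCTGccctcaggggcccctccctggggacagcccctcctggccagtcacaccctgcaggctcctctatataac
Ckmt2 (chr2:24845512-24845761, minus strand): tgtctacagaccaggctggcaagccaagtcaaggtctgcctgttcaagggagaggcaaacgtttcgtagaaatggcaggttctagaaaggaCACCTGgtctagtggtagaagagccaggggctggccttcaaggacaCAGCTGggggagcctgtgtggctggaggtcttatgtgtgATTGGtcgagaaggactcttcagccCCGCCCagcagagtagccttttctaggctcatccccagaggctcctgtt
Ckb (chr6:136553465-136553714, minus strand): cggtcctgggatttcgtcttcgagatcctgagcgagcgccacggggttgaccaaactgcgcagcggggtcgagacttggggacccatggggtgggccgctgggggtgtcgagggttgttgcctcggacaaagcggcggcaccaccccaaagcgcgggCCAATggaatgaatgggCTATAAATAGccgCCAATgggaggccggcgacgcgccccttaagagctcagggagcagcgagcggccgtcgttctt
Mb (chr7:110647743-110647992, minus strand): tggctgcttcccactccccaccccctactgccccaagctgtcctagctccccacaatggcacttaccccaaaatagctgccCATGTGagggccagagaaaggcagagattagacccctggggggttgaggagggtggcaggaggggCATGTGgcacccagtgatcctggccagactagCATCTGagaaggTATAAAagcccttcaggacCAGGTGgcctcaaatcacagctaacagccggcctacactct

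Both strands were searched for MEF2 and the CArG box by their consensus, for the estrogen-related receptor element as TCAAGGTCA, and for the cAMP response element as TGACGTCA. The E-box was taken as CANNTG, the AP-1 site as TGANTCA and the GC box as GGGCGG. The TATA box was taken as TATAAA and the CCAAT box by the letters of its name. An E-box, the site read by muscle factors such as MyoD and by many others, lay 3 times in the Ckm stretch, 2 times in that of Ckmt2 and 4 times in that of Mb, and 65.5% of all 33469 promoters of this length held at least 1. TATAAA was found at position -60 from the listed start in Mb and at -75 in Ckb, against 12.9% of all promoters. In Ckb it lay inside a match to MEF2, the only MEF2 match among the 7 members with an entry, and 2.96% of all promoters held such a match. CCAAT was in Ckmt2 and Ckb (34.0% of all promoters) and the GC box in Ckmt2 (30.5%). Of the members that did not pass the test, Slc6a8 and Prkag2 (which has 2 entries) also held an E-box, and Slc6a8, Prkaa2 and Prkag2 held a GC box. CArG, the estrogen-related receptor element, the cAMP response element and AP-1 had no match in any of the 7, and each was held by 0.388% to 6.34% of all promoters. Ampd3 and Ak1 had no entry. The letters are a description of these windows only, and the enhancer for which Ckm is known lies farther upstream, outside them.

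The scale of these values moved with the groups. The 13 mRNAs encoded by mitochondrial DNA took 80.1% to 86.2% of the summed FPKM in the sham rats and 61.8% to 71.5% in the I/R rats, and the 10942 genes tested had a median log2 fold change of 0.29. By limma (adjusted p under 0.05), 25.5% of all genes tested were higher in I/R and 7.36% lower, and the marker counts below use the same rule. All 6 of the 6 cardiomyocyte markers in the table (Myh6, Tnnt2, Tnni3, Actn2, Myl2 and Myl3) were higher in I/R, with a summed FPKM of 3328 to 10629 in sham and 20089 to 26717 in I/R. Sham replicate 1 stood apart from its group, with its lowest share of mitochondrial mRNAs, its highest cardiomyocyte markers, and smooth muscle markers summing to 251.6 FPKM. The log2 fold changes and the family shares are therefore also given without sham replicate 1. In the I/R rats the smooth muscle markers summed to 79.4 to 285.0 FPKM. I/R replicate 1 likewise had the lowest share of mitochondrial mRNAs and the highest cardiomyocyte markers of its group, and some values are given without it. The summed FPKM of the skeletal muscle markers reached at most 4.11 in any rat, with 0 of 2 tested genes called and Myh4 listed at 0 in all 6. Markers of neutrophils and monocytes were higher for 4 of 5 (18.7 to 29.0 FPKM in sham, 54.9 to 120.9 in I/R), those of fibroblasts for 1 of 6, and those of red blood cells, endothelium, smooth muscle and glia for 0 of 3, 0 of 5, 0 of 4 and 0 of 4. At an unadjusted limma p under 0.05 the endothelial list had 1 such gene (Kdr), and those of red blood cells and smooth muscle had 0. The part of these shifts in the results was not tested. In whole tissue, more cells of a type and more RNA per cell cannot be told apart.

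On the FPKM scale as deposited, 4 of the 8 genes were higher in the I/R rats by limma (Ckm, Mb, Ckmt2 and Ckb, by 3.32-fold to 6.04-fold in mean FPKM), 0 were lower (also 0 at an unadjusted p under 0.05) and 4 did not pass the threshold. Against the cardiomyocyte markers of the same rat, Ckmt2 and Ckb lay on the other side of 0. Over all genes tested, 25.5% were higher and 7.36% lower by the same rule (adjusted p under 0.05). Every I/R rat was above every sham rat for 5 of the 8 (the 4 genes and Prkag2), as for 37.2% of all genes, and below for 0, as for 13% of all genes. The median log2 fold change of the 8 was 1.25, and all 8 were above 0, as were 7142 of the 10942 genes. With 3 rats against 3 an exact permutation test cannot give a p under 0.1.

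**Figure D1:**
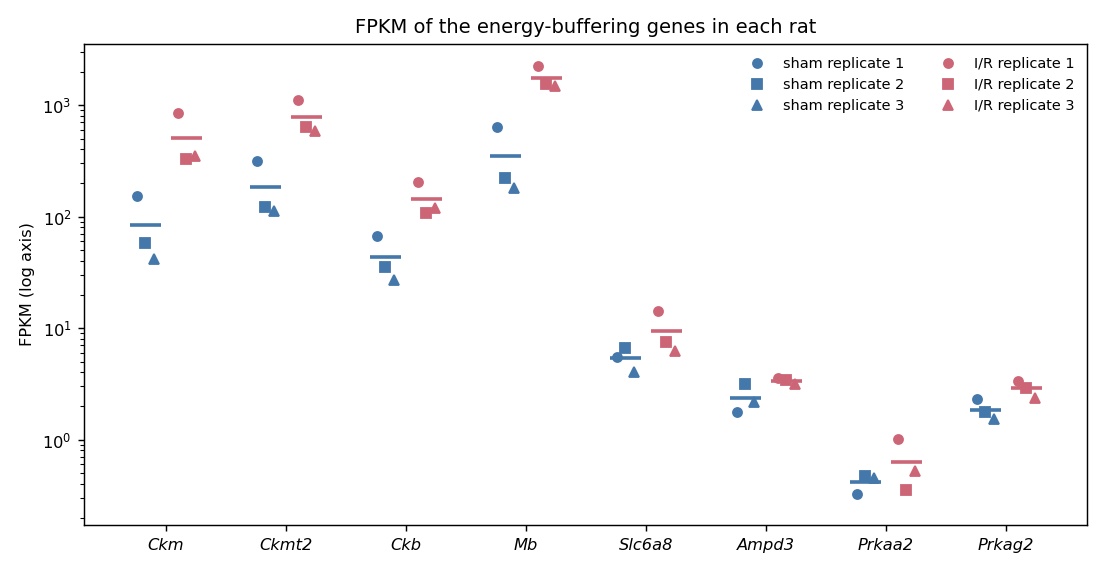
FPKM (log axis) of the 8 genes in each rat, with blue for sham, red for I/R, the shape for the replicate number, and the horizontal line for the group mean. The groups do not overlap for Ckm, Ckmt2, Ckb, Mb and Prkag2, and replicate 1 is the highest rat of its group for each of these.

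The muscle creatine kinase Ckm (ENSRNOG00000016837) had the largest log2 fold change of the 8 with all rats in, and Mb had it without I/R replicate 1 (2.36 against 2.24). Its FPKM was 152.4, 58.3 and 41.3 in sham replicates 1 to 3 and 843.3, 325.9 and 352.1 in I/R replicates 1 to 3. The groups did not overlap, although replicate 1 stood well above the other 2 rats in both groups. The mean rose from 84.0 ± 59.9 (SD, n = 3) to 507.1 ± 291.5 FPKM (SD, n = 3), a log2 fold change of 2.68 (SE 0.50, limma adjusted p = 0.00556), and 0.978% of all genes tested had a larger one. Without sham replicate 1 the log2 fold change was 3.22, and without I/R replicate 1 it was 2.24, both past the threshold.

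Ckmt2 (ENSRNOG00000055450), the sarcomeric mitochondrial form, was the most abundant creatine kinase in every rat. Its FPKM was 318.0, 121.5 and 112.5 in the sham rats and 1118.9, 638.7 and 588.2 in the I/R rats, with no overlap. From 184.0 ± 116.1 to 782.0 ± 292.9 FPKM (SD, n = 3 each), the log2 fold change was 2.20 (SE 0.42, limma adjusted p = 0.00584), and it was 2.68 without sham replicate 1. By mean level among all genes of the table, Ckmt2 stood at rank 129 in sham and 53 in I/R, and Ckm at 239 and 90.

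The brain-type enzyme Ckb (ENSRNOG00000010872) had the smallest log2 fold change of the creatine kinases. It was at 66.8, 35.0 and 27.1 FPKM in the sham rats and at 203.0, 106.8 and 118.8 in the I/R rats, so that the lowest I/R rat was above the highest sham rat. The mean went from 43.0 ± 21.0 to 142.9 ± 52.4 FPKM (SD, n = 3 each), a log2 fold change of 1.78 (SE 0.37, limma adjusted p = 0.00782). Without sham replicate 1 it was 2.15. After quantile normalization between rats it was 0.82 and no longer passed (limma adjusted p = 0.0584).

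Slc6a8 (ENSRNOG00000057620), which brings creatine into the cell, did not pass the threshold. Its FPKM was 5.49, 6.57 and 4.03 in sham and 14.3, 7.46 and 6.22 in I/R. Only I/R replicates 1 and 2 lay above the whole sham group, and I/R replicate 3 lay inside it. The log2 fold change was 0.72 (95% interval -0.02 to 1.46, limma adjusted p = 0.120), and it was 0.75 without sham replicate 1 and 0.37 without I/R replicate 1.

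Myoglobin (Mb, ENSRNOG00000004583) was the most abundant of the 8 genes in all 6 rats. It was at 638.4, 222.9 and 181.2 FPKM in the sham rats and at 2248, 1549 and 1489 FPKM in the I/R rats. The gap between the groups was wide, and no I/R rat came near the sham range. The mean rose from 347.5 ± 252.8 to 1762 ± 422.3 FPKM (SD, n = 3 each), a log2 fold change of 2.55 (SE 0.44, limma adjusted p = 0.00427) that 1.19% of all genes exceeded. Without sham replicate 1 it was 3.11. By mean level Mb went from rank 61 to rank 32 among all genes.

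The AMP branch was expressed at far lower levels. Ampd3 (ENSRNOG00000018262), an AMP deaminase found in red cells and in many other tissues, was at 1.77, 3.15 and 2.16 FPKM in sham and at 3.58, 3.41 and 3.12 in I/R. The I/R rats lay close together, and the lowest of them fell just under sham replicate 2. The log2 fold change was 0.53 (95% interval -0.03 to 1.09, limma adjusted p = 0.129), and it was 0.36 without sham replicate 1.

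Prkaa2 (ENSRNOG00000007706), a catalytic AMPK subunit known to prevail in striated muscle, was near the filter on low values in all rats. By FPKM in these rats it was below Prkaa1, the other alpha subunit, in every rat but I/R replicate 1. Prkaa2 was at 0.322, 0.476 and 0.449 FPKM in sham and at 1.02, 0.353 and 0.527 in I/R. A single rat, I/R replicate 1, lay clearly above the rest, and I/R replicate 2 lay within the sham range. The log2 fold change was 0.42 with an interval from -0.53 to 1.37 (limma adjusted p = 0.474). It was 0.28 without sham replicate 1, and without I/R replicate 1 the gene did not reach a mean of 0.5 FPKM and was not tested.

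Prkag2 (ENSRNOG00000009085) encodes a regulatory gamma subunit of AMPK, in which inherited mutations cause a cardiomyopathy with glycogen storage. It was at 2.29, 1.75 and 1.54 FPKM in sham and at 3.37, 2.90 and 2.36 in I/R. The groups did not overlap, but the lowest I/R rat was only slightly above the highest sham rat. The log2 fold change was 0.61 (95% interval 0.06 to 1.15, limma adjusted p = 0.0825), and it was 0.76 without sham replicate 1. Its call and direction depended on the scale, since it was 0.80 after rescaling to TPM (limma adjusted p = 0.0451), -0.15 without the mitochondrial mRNAs in the scaling (0.709) and -1.71 centred on the cardiomyocyte markers (0.0220).

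**Figure D2:**
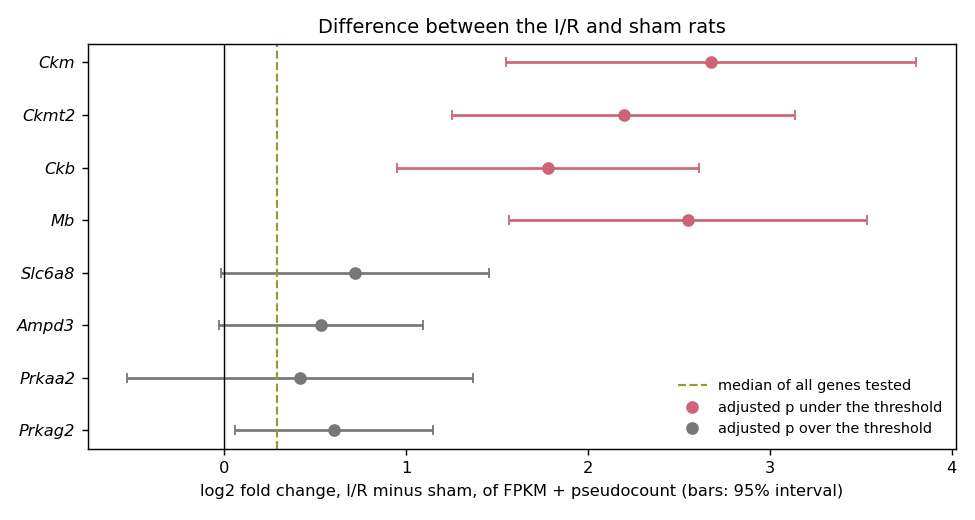
Log2 fold change (I/R minus sham, of FPKM plus 0.1) of each gene with its 95% interval from limma, and the median of all genes tested as a dashed line at 0.29. The intervals of Ckm, Ckmt2, Ckb and Mb (red) lie above that line on this scale, where Ckmt2 and Ckb turn below 0 if each rat is centred on the cardiomyocyte markers, and the intervals of the other 4 (grey) cross it.

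The 4 genes that rose also varied together between rats of the same group. Sham replicate 1 was above the mean of its group on the log2 scale by 1.09 for Ckm, 0.96 for Ckmt2, 0.74 for Ckb and 1.11 for Mb. I/R replicate 1 was above its own group by 0.88, 0.58, 0.57 and 0.38 for the same genes. Ampd3 and Prkaa2 did not follow this order in sham, where replicate 1 was the lowest rat for both (log2 deviations of -0.36 and -0.28 from the sham mean), while Prkag2 did (0.30). Slc6a8 did not follow it either, as sham replicate 2 was its highest sham rat (0.32, against 0.06 in sham replicate 1).

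As a share of the FPKM outside the mitochondrially encoded mRNAs, the 4 genes were still higher in every I/R rat. The 3 creatine kinases together made up 0.299%, 0.161% and 0.141% of it in the sham rats and 0.776%, 0.447% and 0.450% in the I/R rats, a ratio of the means of 2.78. For single genes the ratio was 3.66 for Ckm, 3.14 for Mb, 2.58 for Ckmt2 and 1.98 for Ckb (two-sided exact permutation p = 0.1 for each). The other 4 were not higher on this scale, with ratios of 0.979 for Slc6a8, 0.902 for Prkag2, 0.832 for Prkaa2 and 0.802 for Ampd3, and their groups overlapped. Fitted on this scale, limma called Ckm (log2 fold change 1.89), Mb (1.77), Ckmt2 (1.41) and Ckb (0.99, adjusted p = 0.0158) higher, against 7.25% of all genes.

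A share within a gene family does not depend on how a rat's library is scaled. Among the creatine kinases the brain form held a smaller share and the muscle form a larger share in every I/R rat than in any sham rat. Ckb made up 12.4%, 16.3% and 15.0% of the creatine kinase FPKM in sham and 9.38%, 9.97% and 11.2% in I/R, so each I/R rat was below each sham rat (14.6% ± 1.97 against 10.2% ± 0.938, SD, n = 3 each, two-sided exact permutation p = 0.1). Ckm, whose share was added after the data were seen, made up 28.4%, 27.1% and 22.8% in sham and 38.9%, 30.4% and 33.2% in I/R, again with no overlap (exact p = 0.1). Ckmt2 held the largest share in both groups, 59.3% ± 2.82 in sham and 55.6% ± 3.97 in I/R, and its groups overlapped (exact p = 0.3), with a difference of -3.70 percentage points that was -1.74 without I/R replicate 1. The non-muscle mitochondrial form Ckmt1 was listed at 0 in 5 of the 6 rats.

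In the AMP branch each share was larger in every I/R rat than in any sham rat. Ampd3 held 38.6%, 44.5% and 43.2% of the AMP deaminase FPKM in the sham rats and 59.5%, 56.9% and 53.8% in the I/R rats (exact p = 0.1), with Ampd2 as nearly all of the rest and the skeletal muscle form Ampd1 at no more than 0.0940 FPKM. Prkaa2 held 18.6%, 25.4% and 21.0% of the AMPK alpha FPKM in sham and 55.1%, 26.5% and 33.6% in I/R (exact p = 0.1), a difference of 16.8 percentage points that was 8.44 without I/R replicate 1. Prkag2 held 72.8%, 55.0% and 61.7% of the AMPK gamma FPKM in sham and 90.0%, 89.3% and 84.6% in I/R (exact p = 0.1). Its partner in that sum was Prkag3, since Prkag1, the gamma subunit found in most tissues, was listed at no more than 0.0621 FPKM. Heart is known to express Prkag1, and the annotation behind its row is not given in the sources used here, so the share of Prkag2 may be too high in both groups. The difference in this share between the groups has the same limit, as it rests on Prkag3, a low gene at 0.286 to 1.43 FPKM. Without sham replicate 1 the differences in share were -5.45 percentage points for Ckb (-4.38 with it), 9.21 for Ckm, -3.77 for Ckmt2, 12.9 for Ampd3, 15.2 for Prkaa2 and 29.6 for Prkag2. With 6 shares compared, no exact p was under 0.1, the smallest it can be.

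**Figure D3:**
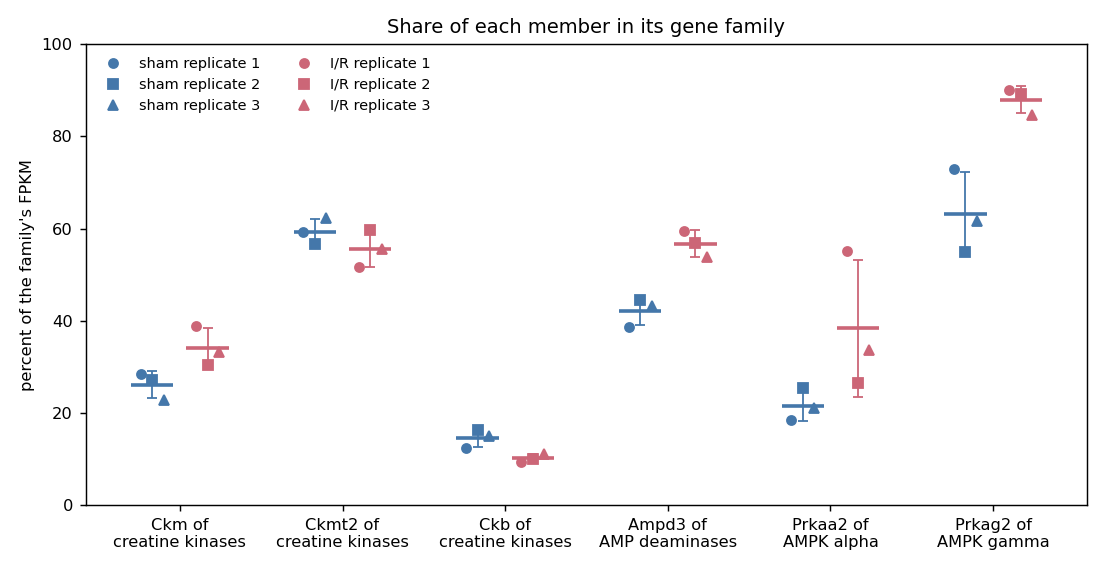
Percent of the FPKM of a gene family that each gene held in each rat, with lines for the group mean and bars for the SD (n = 3 each, blue for sham and red for I/R). The groups do not overlap for any share but that of Ckmt2, and Ckb is the only gene whose share is lower in every I/R rat. The share of Prkag2 is set against Prkag3 with almost no Prkag1, which limits its level and its difference.

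Set against the cardiomyocyte markers of the same rat, the 4 genes that did not pass were lower in every I/R rat, Mb was higher, and the creatine kinases overlapped between the groups. The mean log2 level of the 6 markers was 10.11, 8.66 and 8.40 in the sham rats and 11.70, 11.24 and 11.20 in the I/R rats, a difference of 2.32 (exact p = 0.1). Mb was nearest to them in level, at -0.79, -0.86 and -0.90 log2 units from the marker mean in sham and -0.56, -0.64 and -0.66 in I/R. This was a difference of 0.23 with no overlap (exact p = 0.1, 0.16 after Benjamini-Hochberg adjustment over the 8), and limma on this scale did not call it (adjusted p = 0.580). Over the sham rats the SD of the distance of Mb from the markers was 0.055, so the high level of Mb in sham replicate 1 went with its markers.

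Ckm lay at -2.86, -2.79 and -3.03 log2 units from the markers in sham and at -1.98, -2.89 and -2.74 in I/R, an overlapping difference of 0.36 that was 0.08 without I/R replicate 1. Ckmt2 differed by -0.12 and Ckb by -0.54, both with overlapping groups (exact p = 0.5 and 0.2). The other 4 were lower against the markers in every I/R rat, by -1.60 for Slc6a8, -1.71 for Prkag2, -1.79 for Ampd3 and -1.90 for Prkaa2 (exact p = 0.1 for each, 0.16 after Benjamini-Hochberg adjustment over the 8). Without sham replicate 1 these 4 differences were -2.10, -2.09, -2.49 and -2.57. With all rats centred on the markers, limma called these 4 of 8 lower and 0 higher, against 79.4% of all genes lower.

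**Figure D4:**
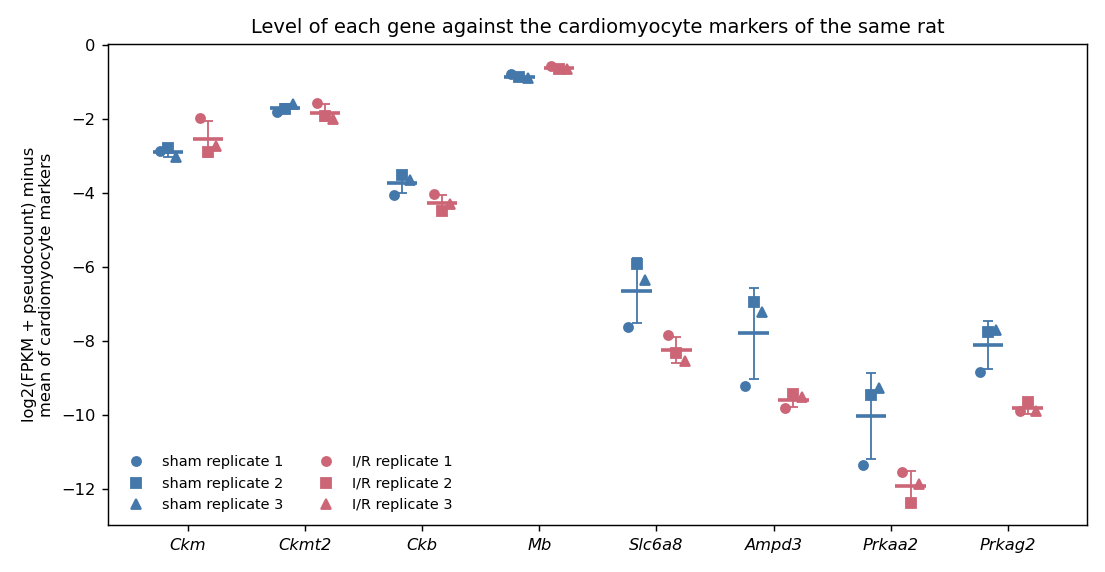
Log2 level of each gene minus the mean log2 level of the 6 cardiomyocyte markers in the same rat, with lines for the group mean and bars for the SD (n = 3 each, blue for sham and red for I/R). Ckm, Ckmt2 and Ckb overlap between the groups, Mb is slightly higher in I/R, and the other 4 lie lower in every I/R rat.

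Genes around the members were counted from lists of the same reactions. Of 2 tested genes that make creatine, Gamt, which adds the last methyl group, was higher (0.458, 0.239 and 0.140 FPKM in sham, 2.18, 0.753 and 1.80 in I/R, log2 fold change 2.12, limma adjusted p = 0.00918), while Gatm, which starts the synthesis, had a log2 fold change of -0.08 (limma adjusted p = 0.813). Over all genes tested, 25.5% were higher by the same rule. Among the other adenylate kinases, which pass phosphate between adenine nucleotides or use GTP, Ak4 of the mitochondrial matrix was higher, at 0.400, 0.344 and 0.406 FPKM in sham and 3.74, 1.62 and 0.887 in I/R (log2 fold change 1.95, limma adjusted p = 0.0109). Ak3 (log2 fold change 0.16, limma adjusted p = 0.804) and Ak6 (0.60, 0.148) did not pass. Gamt and Ak4 were called with any rat left out, and also without the mitochondrial mRNAs in the scaling, but their differences were below 0 against the cardiomyocyte markers. Both were under 0.5 FPKM, the filter on the mean, in every sham rat. They were thus tested only through their I/R values, which limits these calls. Without the mitochondrial mRNAs in the scaling, Gatm passed as lower (log2 fold change -0.85, limma adjusted p = 0.0374), beside 26.1% of all genes.

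In the purine nucleotide cycle, which returns IMP to AMP, 1 of 4 tested genes was higher, near the 25.5% of all genes, and 0 were lower. This was Adssl1, the muscle form of adenylosuccinate synthase, at 39.2, 19.6 and 17.0 FPKM in sham and 130.7, 80.5 and 72.0 in I/R (log2 fold change 1.95, limma adjusted p = 0.00515, called with any rat left out). Against the cardiomyocyte markers, which rose by 2.32, the difference of Adssl1 was below 0. Its non-muscle counterpart Adss had a log2 fold change of -0.28 (limma adjusted p = 0.445), Ampd2 also of -0.28 (0.354), and Adsl, the lyase that follows them, of 0.60 (0.0789). Without the mitochondrial mRNAs in the scaling, Adss (-1.05, limma adjusted p = 0.0300) and Ampd2 (-1.04, 0.0196) passed as lower, beside 26.1% of all genes.

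Of the other AMPK subunits and the kinases above them, 3 of 8 tested were higher and 1 was lower, beside 25.5% and 7.36% of all genes. Stk11 (LKB1), the kinase that activates AMPK, had a log2 fold change of 1.09 (limma adjusted p = 0.0105), Prkab1, a scaffold subunit, of 0.79 (0.0288), and Stradb, a partner of Stk11, of 0.73 (0.0397). These do not hold on every scale, as without the mitochondrial mRNAs in the scaling the 3 values were 0.31, 0.01 and -0.04 and none passed. Prkab1 lost its call without any rat but I/R replicate 2, and Stradb without any but I/R replicate 3, with an adjusted p up to 0.10 for each. Prkag3, a gamma subunit best known from skeletal muscle, was at 0.812, 1.43 and 0.943 FPKM in sham and 0.376, 0.286 and 0.431 in I/R, a log2 fold change of -1.30 (limma adjusted p = 0.0183). It lost its call without sham replicate 2, sham replicate 3 or I/R replicate 2 (adjusted p up to 0.0719). Prkag3 was under 0.5 FPKM, the filter on the mean, in every I/R rat. It was thus tested only through its sham values, which limits this call. Prkaa1, the catalytic subunit found in most tissues, was lower in every I/R rat, with a log2 fold change of -0.61 that did not pass as deposited (limma adjusted p = 0.0810). It passed without the mitochondrial mRNAs in the scaling (-1.33, limma adjusted p = 0.0113), where 26.1% of all genes were lower. Prkaa1 also passed centred on the median (-0.86, 0.0293), but not after quantile normalization (-0.66, 0.0639).

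Of the other globins, cytoglobin (Cygb), a globin of fibroblasts, was tested and was higher, with 27.2, 24.3 and 27.9 FPKM in sham and 50.9, 38.0 and 42.9 in I/R (log2 fold change 0.72, limma adjusted p = 0.0332). It was -0.06 without the mitochondrial mRNAs in the scaling, -0.20 after quantile normalization, and lost its call without any rat but sham replicate 1 (adjusted p up to 0.101). The red cell globins Hba-a2 and Hbb-b1 overlapped between the groups.

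The genes most like a member over the 6 rats were found as those with the smallest root mean square difference of log2 levels after subtracting each gene's mean, among the 3582 or 3583 named genes with a mean of at least 5 FPKM. For Ckm they included Idh2, a mitochondrial isocitrate dehydrogenase (0.084 log2 units), and Nkx2-5, a cardiac transcription factor (0.17). Idh2 was at 73.5, 30.9 and 23.4 FPKM in sham and 460.6, 188.2 and 194.7 in I/R, which sets I/R replicate 1 as far above its group as Ckm does. For Ckb they were Myom1, a protein of the sarcomere's M band (0.062), Atat1 (0.075) and Yif1a (0.078). For Ampd3 they were Ets1, a transcription factor (0.040), Stk16 (0.059) and Anxa2 (0.065), and all 3 had their lowest value in sham replicate 1. These are descriptions over 6 rats in 2 groups, and carry no test.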

How the data were processed

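RNA from myocardial tissue of 3 sham and 3 I/R rats was sequenced from stranded total RNA libraries. The authors deposited 1 table of FPKM values, already divided by gene length and library size. The submitters' processing notes name STAR and HTSeq, and their versions, the genome build and the annotation are not given in the sources used here. FPKM carry no counts, so the absolute depth is unknown. Steps between low values gave an estimated relative depth of 1 to 1.18 in sham and 0.871 to 0.933 in I/R (sham replicate 1 as 1). At the best value, only 44.3% to 52.3% of the ratios to sham replicate 1 fitted whole steps in the other rats, which limits this estimate.

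Rows of 1 symbol were summed. Log2(FPKM + 0.1) of the genes with a mean of at least 0.5 FPKM was fitted with limma 3.58.1 in R 4.3.3 (intensity trend), with Benjamini-Hochberg adjustment over all genes tested and a threshold of 0.05. Fold changes on this scale understate those of low genes. Shares and differences from the markers were compared with two-sided exact permutation tests. The scripts were tested on simulated data. P-values measure the spread between these samples, which the labels number without stating that each is a separate animal, and which may then be technical. The members and all lists were chosen with earlier results of these data known. All members were named, and of the lists the genes past the threshold, or the largest change where none passed, with some others named after their values were seen. Promoters were matched to RefSeq by symbol. Some genes of the lists are not reported here.

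The labels number the samples 1 to 3 in each group. Same-numbered samples deviated together (correlations of 0.203, 0.117 and 0.118 across genes), as sham replicate 3 also did with I/R replicate 2 (0.120), and a fit with the replicate number as a block was made. The alternatives were other pseudocounts (1 and 0.01), filters and scalings, limma without the trend, each rat left out, and the highest row of each symbol.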

Additional observations from a re-analysis of the deposited data

How the results depend on the processing

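Of the members, 4 were higher and 0 lower under the alternatives run, except for 3 higher after quantile normalization (without Ckb), 5 as TPM (with Prkag2), and 0 higher and 4 lower when centred on the cardiomyocyte markers. On that scale the log2 fold changes were 0.36 for Ckm (adjusted p = 0.433) and 0.23 for Mb (0.580), and they turned to -0.12 for Ckmt2, -0.54 for Ckb, -1.60 for Slc6a8, -1.79 for Ampd3, -1.90 for Prkaa2 and -1.71 for Prkag2. With the 13 mitochondrial mRNAs left out of the scaling, Slc6a8 was -0.053, Ampd3 -0.23, Prkaa2 -0.24 and Prkag2 -0.15, and none of these passed. Over all genes the median was 0.29 as deposited, 0.48 as TPM, 0.04 centred on the median, -0.02 after quantile normalization, -0.46 without the mitochondrial mRNAs and -2.03 against the markers, where 0.302% of genes were higher, against 25.5% as deposited. TPM gave 31.5% higher and 4.61% lower, quantile normalization 13.2% and 14.2%, centring on the median 18.5% and 14.2%, and the rescaling without mitochondrial mRNAs 7.25% and 26.1%. Leaving out single rats gave log2 fold changes of 2.24 to 3.22 for Ckm, 1.91 to 2.68 for Ckmt2 and 2.20 to 3.11 for Mb, and Ckb had an adjusted p of at most 0.0426, so that all 4 still passed and none of the other members did. With the replicate block the counts were 4 and 0, Ckm had an adjusted p of 6.87e-05, and no member's call changed. For the shares the block allows no p under 0.25. A filter at a mean of 5 FPKM left out Ampd3, Prkaa2 and Prkag2. The share of Ak1 and the marker Pln were not analysed here. The fragments behind low genes such as Prkaa2, Prkag3, Gamt and Ak4 are unknown, which limits their precision.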

Other observations

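The enzymes that break down and salvage purines, which act on the AMP, IMP and adenosine left when ATP is spent, were listed with the members and are described here. Of 12 found, 11 were tested, 3 were higher in I/R, 1 was lower and 7 did not pass, with a median log2 fold change of 0.13 beside 0.29 for all genes. These counts are near the background of 25.5% of all genes higher and 7.36% lower.

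Adk, the kinase that turns adenosine into AMP, was at 6.37, 3.71 and 3.09 FPKM in the sham rats and 24.2, 12.7 and 10.2 in the I/R rats, with no overlap (log2 fold change 1.78, SE 0.37, limma adjusted p = 0.00743). It was called with any rat left out and with the 13 mitochondrial mRNAs left out of the scaling (1.01, adjusted p = 0.0202). Aprt, which salvages adenine, had a log2 fold change of 1.17 (adjusted p = 0.0103), and Hprt1, which salvages hypoxanthine and guanine, of 0.98 (0.0200), but on that scale they were 0.39 and 0.20 and did not pass. Aprt lost its call without sham replicate 2 (adjusted p = 0.0511), and Hprt1 without sham replicate 2 or 3 or I/R replicate 1 or 2 (up to 0.0771). All 3 were below 0 against the cardiomyocyte markers.

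Xdh, the oxidoreductase that makes uric acid, was lower, at 21.7, 25.4 and 19.5 FPKM in sham and 15.0, 13.4 and 14.5 in I/R, with no overlap (log2 fold change -0.63, limma adjusted p = 0.0499). It lay just inside the threshold and lost its call when any 1 rat was left out (adjusted p up to 0.158), and also after rescaling to TPM (0.214), while on the scale without the mitochondrial mRNAs it was -1.41 (adjusted p = 0.00163). Pnp, the step before it, was also lower in every I/R rat but did not pass as deposited (log2 fold change -0.42, limma adjusted p = 0.162). It passed as lower without the mitochondrial mRNAs in the scaling (-1.20, limma adjusted p = 0.00468), after quantile normalization (-1.27, 0.00928) and centred on the median (-0.67, 0.0229). On these scales 26.1%, 14.2% and 14.2% of all genes were lower. The direction of Xdh was the same under TPM, median, quantile and marker scaling.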
